A study of Zea mays with 6 samples.

Results

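A set of 33 genes was read in the leaf sheath of wild-type maize and not at all in plants lacking the long noncoding RNA GARR2. The members were chosen by their measured values. Each had an expression value of exactly 0 in all 3 knockout libraries (GARR2KO) and of at least 1 FPKM, fragments per kilobase of gene scaled to library size, in all 3 wild-type libraries (WT). They were 33 of the 44146 identifiers listed, and 33 of the 20586 genes (0.16%) that reached 1 FPKM in every WT library. All 6 libraries came from the second leaf sheath of Zea mays seedlings at the 3-leaf stage grown normally and left untreated. The genotypes were WT and GARR2KO, with 3 biological replicates each. The labels name no inbred line, and leave unsaid by what method GARR2 was knocked out and whether the WT plants were siblings. An effect of losing GARR2, a difference in background between the lines and a batch shared by the libraries of a genotype therefore cannot be told apart.

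A grass leaf consists of a blade and, below it, a sheath that encloses the shoot. Long noncoding RNAs are transcripts without a long reading frame, and members of this class are known to act on nearby genes, on distant genes or through bound proteins. GARR2 was described in maize as responsive to gibberellin, a hormone that promotes elongation of shoots and sheaths. The identifiers belong to the gene models of the B73 reference genome, and a value of 0 means that no counted read was assigned to that model. The identifiers of the 33 genes are not paired with names in the sources used here, so each is given by identifier and no role is stated for it.

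Read counts were recovered from the FPKM values, which are whole multiples of a step that depends on gene length and library. Reads over all listed genes numbered 17750728 to 20722310 in the WT libraries and 17723731 to 19182499 in the GARR2KO libraries. The depths of the genotypes thus overlapped. No identifier was tied to GARR2, and the targeted transcript therefore could not serve as a check of the genotype labels.

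The 33 genes ran from 1.19 to 16.9 FPKM in mean WT level, with a median of 4.40 FPKM. They lay in the lower part of the expressed genes, whose median was 9.41 FPKM, and 27 of the 33 were below that median. Of the expressed genes, 6712 (32.6%) had a higher WT mean than the highest member. None of those was at 0 in all GARR2KO libraries, which follows from the rule, since such a gene would be a member. The fewest GARR2KO reads among those 6712 genes was 1. By level, 5 members had a WT mean of at least 10 FPKM, 10 had 5 to 10 FPKM, 14 had 2 to 5 FPKM and 4 had under 2 FPKM. Together they summed to 204, 187 and 188 FPKM in WT replicates 1 to 3, a mean of 193 ± 9.5 FPKM (SD, n = 3), and to 0 in each GARR2KO library. This was 0.0278 to 0.0307% of the summed FPKM of a WT library. These are whole sheaths, so fewer cells of a type and less RNA per cell cannot be told apart.

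**Figure D1:**
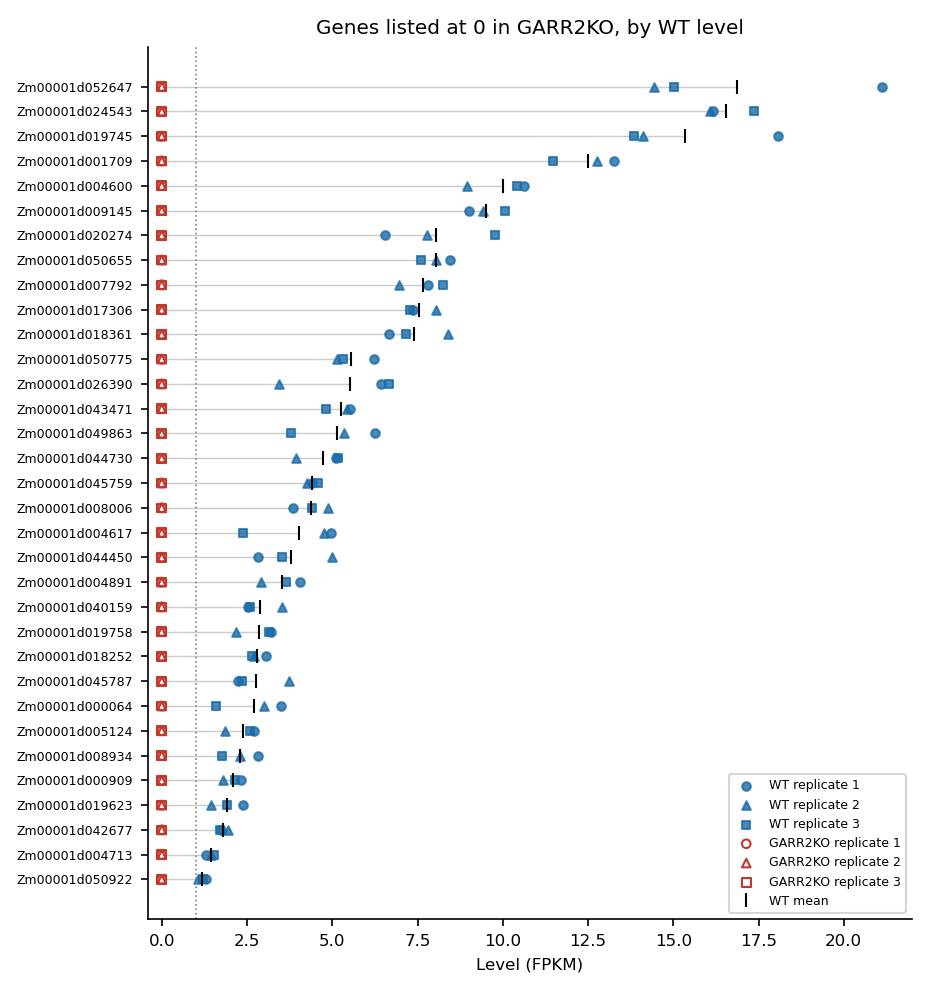
Level in FPKM (horizontal axis) of the 33 genes in each WT library (filled) and each GARR2KO library (open), ordered by WT mean (black bar); the dotted line marks the minimum of 1 FPKM. The GARR2KO points lie at 0 by the rule, and the WT means fall from 16.9 to 1.19 FPKM without a break into separate classes.

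The 5 most abundant members held 36.9% of the summed WT level of the set. Zm00001d052647 was highest, at 21.1, 14.4 and 15.0 FPKM in WT replicates 1 to 3, a mean of 16.9 ± 3.7 (SD, n = 3). Zm00001d024543 followed at 16.2, 16.1 and 17.4 FPKM, a mean of 16.5 ± 0.73. These means differed by less than the spread of Zm00001d052647, which stood high in WT replicate 1. Zm00001d024543 was the longest member, with an implied length of 3094 bp, and held 2929 of the 11221 WT reads of the set. Zm00001d019745 had 18.1, 14.1 and 13.8 FPKM, again with WT replicate 1 highest. Zm00001d001709 had 13.2, 12.8 and 11.5 FPKM, and Zm00001d004600 had 10.6, 8.96 and 10.4 FPKM. WT replicate 1 was highest for 4 of these 5 genes and WT replicate 3 for Zm00001d024543.

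The 10 members between 5 and 10 FPKM had WT means from 9.50 down to 5.13 FPKM. Zm00001d009145 was at 9.02, 9.41 and 10.1 FPKM in WT replicates 1 to 3, and Zm00001d050655 at 8.46, 8.05 and 7.59 FPKM. Zm00001d020274 had nearly the same mean as Zm00001d050655 (8.036 against 8.035 FPKM) but a wider spread, with 6.55, 7.78 and 9.78 FPKM. Neither these means nor those of the next members in the order differed beyond the spread between libraries. Zm00001d007792 had 7.81, 6.95 and 8.25 FPKM, Zm00001d017306 had 7.36, 8.03 and 7.28 FPKM, and Zm00001d018361 had 6.68, 8.40 and 7.15 FPKM. The library with the highest value was thus a different one from gene to gene. Zm00001d050775 was at 6.22, 5.14 and 5.31 FPKM, Zm00001d043471 at 5.52, 5.43 and 4.81 FPKM and Zm00001d049863 at 6.26, 5.35 and 3.79 FPKM. Zm00001d026390 was the shortest member, at 246 bp, and its values of 6.44, 3.45 and 6.68 FPKM rested on only 33, 16 and 29 reads. WT replicate 2 was low for this gene.

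The 14 members at 2 to 5 FPKM ran from Zm00001d044730, with 5.12, 3.92 and 5.16 FPKM in WT replicates 1 to 3, to Zm00001d000909, with 2.32, 1.79 and 2.16 FPKM. The most even of them was Zm00001d045759, at 4.39, 4.25 and 4.57 FPKM. The least even was Zm00001d000064, at 3.50, 2.99 and 1.60 FPKM, where the highest library was 2.19 times the lowest. The other 10 genes of this class had means from 4.38 down to 2.29 FPKM. Zm00001d008006 had 3.85, 4.87 and 4.41 FPKM, and Zm00001d044450 had 2.83, 4.996 and 3.53 FPKM. Zm00001d040159 had 2.54, 3.53 and 2.58 FPKM, and Zm00001d045787 had 2.22, 3.72 and 2.35 FPKM. WT replicate 2 was the highest library for these 4 genes. It was the lowest for Zm00001d004891, at 4.04, 2.90 and 3.64 FPKM, for Zm00001d019758, at 3.20, 2.19 and 3.15 FPKM, and for Zm00001d005124, at 2.70, 1.84 and 2.58 FPKM. WT replicate 3 was lowest for Zm00001d004617, at 4.95, 4.77 and 2.40 FPKM, for Zm00001d018252, at 3.05, 2.70 and 2.65 FPKM, and for Zm00001d008934, at 2.82, 2.29 and 1.77 FPKM. No WT library was thus low throughout this class.

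Only 4 members had a WT mean under 2 FPKM. Zm00001d019623 was at 2.39, 1.44 and 1.93 FPKM, and its 49 WT reads were the fewest of the set. Closest to the minimum by WT mean were Zm00001d042677 with 1.75, 1.93 and 1.71 FPKM, Zm00001d004713 with 1.31, 1.45 and 1.55 FPKM, and Zm00001d050922 with 1.31, 1.05 and 1.22 FPKM. Zm00001d004713 had 28 reads in each WT library, so its 3 FPKM values differ through the scaling of the libraries alone. On the other side of the rule, 15 genes were at 0 in GARR2KO with 1 WT library under 1 FPKM, and 9 missed it by a single GARR2KO read. Of these, the 3 whose lowest WT value was highest follow. Zm00001d002480 had 25.8, 30.4 and 23.6 FPKM in WT and 1 read in GARR2KO replicate 3. Zm00001d017619 had 11.8, 7.94 and 8.76 FPKM with 1 read in GARR2KO replicate 2, and Zm00001d008632 had 6.78, 6.76 and 6.56 FPKM with 1 read in GARR2KO replicate 3. The WT levels of these genes lay inside or above the range of the members.

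The read counts show how much a value of 0 could hide. The 33 genes had 4220, 3593 and 3408 reads in WT replicates 1 to 3, 11221 in all, and 0 reads in GARR2KO. At the WT level and the GARR2KO scale, 11331 reads would have been counted. Per gene the WT reads ran from 49 to 2929, with a median of 208, and from 12 to 1042 in a single library. At 95% confidence for a single gene, a count of 0 allows a mean of up to 3 reads over the 3 GARR2KO libraries. This is 0.0167 FPKM for Zm00001d024543 and 0.211 FPKM for Zm00001d026390. Expression below these limits could have gone without a counted read at this depth, although a single read would have been listed. Taken against 3 reads, and with the WT reads as counted, the lowest bound on the fall in GARR2KO was 16.5-fold, for Zm00001d019623. Each bound is for a single gene and not for all 33 at once. The median bound was 70.0-fold and the highest 986-fold, for Zm00001d024543. A bound of at least 100-fold was reached by 12 members and one of at least 50-fold by 22. These limits cover counting error only, and they describe genes that were picked for this contrast.

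**Figure D2:**
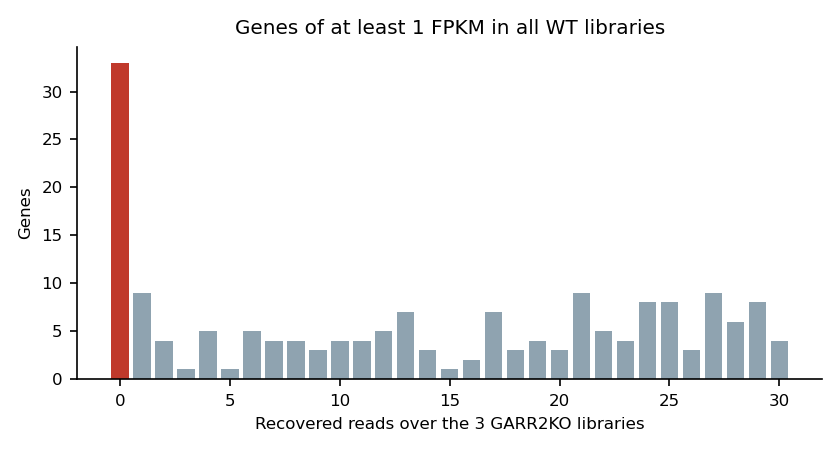
Number of genes (vertical axis) by recovered reads summed over the 3 GARR2KO libraries (horizontal axis, 0 to 30), among the genes of at least 1 FPKM in all WT libraries. The bar at 0 reads holds 33 genes, against 9 genes at 1 read, 4 at 2 reads and 1 at 3 reads.

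The count at 0 reads stood above the counts just beside it. Of the genes of at least 1 FPKM in all WT libraries, 33 had 0 GARR2KO reads, 14 had 1 to 3 reads and 40 had 1 to 10 reads. Without a minimum on the WT level, 1235 genes were at 0 in all GARR2KO libraries and above 0 in at least 1 WT library. Of these, 175 were above 0 in all 3 WT libraries, and the 142 that were no members had a median WT mean of 0.199 FPKM. A further 13070 identifiers were at 0 in all 6 libraries.

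The spread among the WT libraries was described next. The coefficient of variation (CV, SD over mean of the 3 WT libraries) had a median of 13.1% in the members, from 3.69% in Zm00001d045759 to 36.5% in Zm00001d000064. Over the 13728 other genes in the same range of WT level the median was 8.17%. The members also had fewer reads, a median of 208 against 707 over the 3 WT libraries. Counting error alone would give a median CV of 12.0% in the members and 6.51% in the other genes, and 13 members varied less than their own counting error. The part of read number in the difference of CV was not tested. By class, the median CV of the members was above that of the other genes at 2 to 5 FPKM (19.6% against 10.03%), 5 to 10 FPKM (9.56% against 7.13%) and 10 to 20 FPKM (9.07% against 6.01%), and below it at 1 to 2 FPKM (9.53% against 14.1%). WT replicate 1 was the highest library for 18 members, WT replicate 2 for 7 and WT replicate 3 for 8, while the same libraries were highest in 30.3%, 34.8% and 34.9% of the expressed genes. WT replicate 2 was the lowest library for 14 members and for 38.9% of the expressed genes. The median CV of the members was 11.4% without WT replicate 1, 7.61% without WT replicate 2 and 13.5% without WT replicate 3. The CV of the other genes without each library is not given here.

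Most members were short genes. Their implied lengths, taken from the FPKM step, ran from 246 to 3094 bp with a median of 882 bp, against 1819 bp for all genes of at least 1 FPKM in WT and 2075 bp for the other genes within the members' range of level. Under 1000 bp lay 19 of the 33 members (57.6%) and 4087 of the 20586 expressed genes (19.9%). Under 500 bp lay 9 members (27.3%) and 1039 expressed genes (5.05%). Read the other way, 0.465% of the expressed genes under 1000 bp were members, and 0.0849% of those of 1000 bp or more. At 2000 bp or more there were 3 members, Zm00001d024543, Zm00001d005124 and Zm00001d050922. A short gene has fewer reads at the same FPKM, and 49.5 reads was the lowest number that any member would have had in GARR2KO at its WT level. That number rests on WT values that the rule used, and the part of read number in the difference of length was not tested. The 59 genes with the opposite pattern, at 0 in WT and at least 1 FPKM in all GARR2KO libraries, had a median length of 681 bp, with 42 under 1000 bp (71.2%). The lengths of the opposite sets were not tested against each other.

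**Figure D3:**
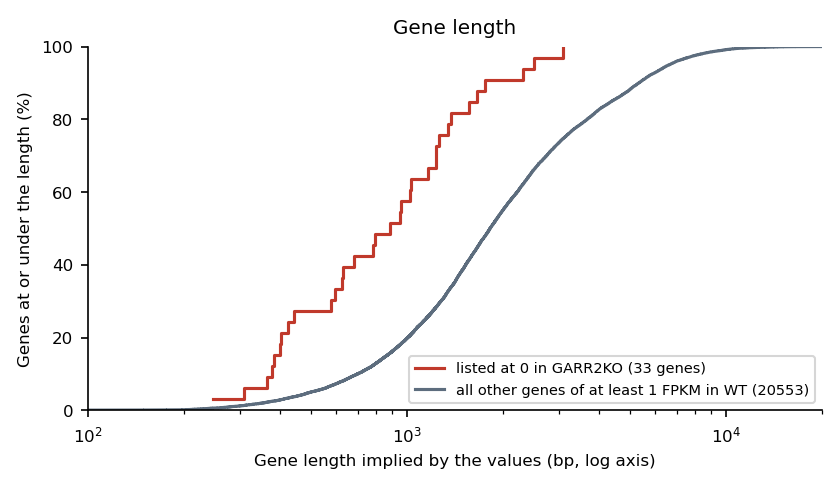
Cumulative share of genes (vertical axis, percent) by gene length implied by the values (horizontal axis, bp, log scale), for the 33 genes listed at 0 in GARR2KO and for the other genes of at least 1 FPKM in all WT libraries. The curve of the 33 genes lies to the left, with 57.6% under 1000 bp.

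The surroundings of the 33 genes were described through the order of the identifiers, a measure that the rule did not use. Whether consecutive identifiers lie side by side in the genome was not tested. A gene was called changed by limma-trend on log2(FPKM + 1) with a Benjamini-Hochberg adjusted p under 0.05. The fit held the 21531 genes whose mean over the 6 libraries reached 1 FPKM. This call was made for 44.2% of the tested genes in either direction and 24.1% as lower in GARR2KO, and with a change of 2-fold or more for 4.01% in either direction and 2.01% as lower. Of the members, 29 reached the mean of 1 FPKM through their WT values and the 4 with a WT mean under 2 FPKM did not. All 29 were called lower by 2-fold or more, which follows from the rule and is no test.

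Within 5 tested genes on each side of a member there were 313 different genes outside the set. Of these, 30 (9.58%) had changed 2-fold or more, 14 of them higher and 16 lower in GARR2KO, against 3.88% of all 21502 tested genes outside the set. Changes of any size were called for 159 of the 313 (50.8%), near the 44.2% of all tested genes. At least 1 neighbour changed 2-fold or more was found beside 16 of the 33 members (48.5%), and beside 28.2% of the tested genes outside the set. Lower neighbours outnumbered higher ones within 2 tested genes of a member and not farther away. Among the 130 neighbours within 2 tested genes, 13 fell and 5 rose by 2-fold or more. At a distance of 3 to 5 tested genes from a member 5 fell and 9 rose, and at 6 to 10 tested genes 7 fell and 24 rose. The numbers were near even at 51 to 100 tested genes, where 76 fell and 84 rose. Distances are counted from each member, so a gene near 2 members counts at both distances. The share stayed above that of all tested genes out to 51 to 100 tested genes, at 5.97%. An earlier look at these data had picked 4 stretches of identifiers for their density of genes changed 2-fold or more. In 3 of them lie 6 members: Zm00001d008934, Zm00001d009145, Zm00001d019623, Zm00001d019745, Zm00001d019758 and Zm00001d044730. The changed neighbours of these 6 are no independent observation, since the stretches were picked on the same changes. The share of other expressed genes in the stretches was not counted. For the other 27 members, 22 of 261 neighbours (8.43%) had changed 2-fold or more. The split by direction and distance was not made for these 27 members alone. These shares are a description with no test, since neighbours are not independent of each other.

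**Figure D4:**
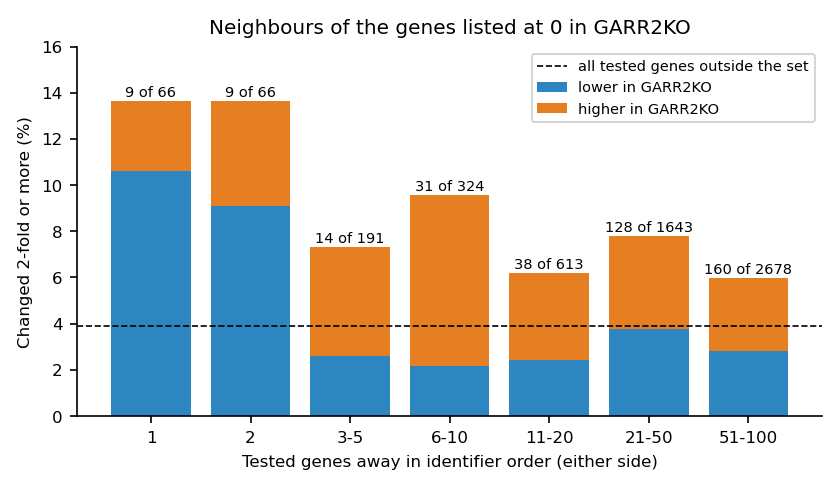
Share of genes changed 2-fold or more (vertical axis, percent) by distance from any of the 33 genes, counted in tested genes in identifier order (horizontal axis), where a gene near 2 members counts at both distances, split into lower (blue) and higher (orange) in GARR2KO; the dashed line is the share over all tested genes outside the set, 3.88%. The share was 13.6% for the first and for the second gene away and 5.97% at 51 to 100 genes.

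Some neighbours were nearly silent in GARR2KO themselves. Zm00001d009144, the identifier before member Zm00001d009145, had 20.8, 21.3 and 19.6 FPKM in WT and 0.146, 0.400 and 0.0769 FPKM in GARR2KO. It fell by 4.17 on the log2(FPKM + 1) scale (SE 0.11, adjusted p = 5.74e-08, limma), with 799 WT reads and 8 GARR2KO reads. On the other side of this member, Zm00001d009146 rose from 127, 133 and 133 FPKM to 278, 263 and 273 FPKM, by 1.04 on the same scale (SE 0.045, adjusted p = 1.15e-06, limma). The 3 consecutive identifiers thus held a fall, a gene at 0 and a rise. Member Zm00001d009145 lies in a stretch picked earlier for its density of changed genes. Zm00001d044449, the identifier before member Zm00001d044450, fell from 8.46, 6.50 and 8.16 FPKM to 0.106, 0.233 and 0 FPKM, with 206 WT reads and 3 GARR2KO reads (log2 fold -2.97, SE 0.13, adjusted p = 1.02e-06, limma). Zm00001d017292, 14 identifier numbers from member Zm00001d017306, had 712 WT reads and 2 GARR2KO reads and fell by 4.14 (SE 0.077, adjusted p = 1.69e-08, limma). Zm00001d000896, next to member Zm00001d000909 among the tested genes, had 58 and 2 reads. In all, 5 of the 16 neighbours that fell had at most 8 GARR2KO reads. For each of the 30 changed neighbours the values of the genotypes did not overlap, which their choice by fold and adjusted p favours. Neither count was set against all tested genes changed 2-fold or more, so neither is a trait of the neighbours.

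Other neighbours fell in part or rose. Zm00001d007789, beside member Zm00001d007792, was the most abundant neighbour that fell, from 69.8, 58.5 and 65.7 FPKM to 7.32, 7.35 and 7.38 FPKM (log2 fold -2.97, SE 0.068, adjusted p = 3.75e-08, limma). Zm00001d019624 and Zm00001d052648, each 1 identifier number above a member (Zm00001d019623 and Zm00001d052647), fell by 1.55 and 1.20 on the same scale. Those 2 genes kept 874 and 505 reads in GARR2KO, unlike the members beside them. Member Zm00001d019623 also lies in a stretch picked earlier for its density of changed genes. The largest rise was that of Zm00001d004624, 7 identifier numbers from member Zm00001d004617, from 0.857, 1.05 and 0.862 FPKM to 42.8, 43.6 and 45.6 FPKM (log2 fold 4.55, SE 0.066, adjusted p = 5.71e-09, limma). Zm00001d008035, near member Zm00001d008006, rose from 0, 0.0246 and 0 FPKM to 10.3, 9.94 and 9.46 FPKM, with 1 WT read against 1236 GARR2KO reads. Beside member Zm00001d050775, Zm00001d050770 had 8 WT reads and 177 GARR2KO reads. A gene at 0 in GARR2KO and a gene nearly at 0 in WT thus stood within a few tested genes of each other in these places.

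In the listing itself, 21 of the 66 entries directly before or after a member (31.8%) were at 0 in all 6 libraries and 21 (31.8%) were at 1 FPKM or more in all 6. For the other expressed genes the same entries were at 0 in 22.2% and at 1 FPKM or more in 53.1% of cases. Reads from overlapping gene models, or from the opposite strand where strand was not used, cannot be told apart in these values, and reads from near-identical copies of a gene may have been split or dropped. Neither was tested for the members.

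The members were spread over the listing with a few close pairs. The median distance between successive members was 716.5 entries, and 3 pairs lay within 20 entries. Zm00001d004600 and Zm00001d004617 were 10 entries apart with 4 tested genes between them, Zm00001d019745 and Zm00001d019758 were 9 apart with 2 between them, and Zm00001d045759 and Zm00001d045787 were 19 apart with 7 between them. No member was thus the nearest tested gene of another. Genes with the opposite pattern lay within 20 entries of 4 members. Beside Zm00001d019758 these were Zm00001d019792, Zm00001d019793 and Zm00001d019794, with GARR2KO means of 12.1 ± 0.97, 11.5 ± 0.24 and 12.5 ± 3.0 FPKM (SD, n = 3) and 0 in WT. The other 3 members of this kind each had 1 such gene, at 1.54 to 3.51 FPKM in GARR2KO. The share of other genes with such a gene within 20 entries was not counted. Zm00001d019758 and Zm00001d008934, both of this kind, lie in the stretches picked earlier for their density of changed genes.

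**Figure D5:**
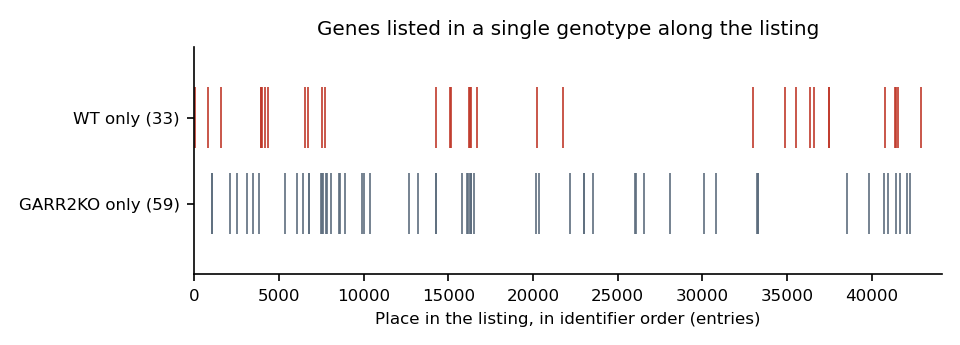
Place of each gene in the listing, in identifier order (horizontal axis, entries), for the 33 genes at 0 in GARR2KO (WT only) and the 59 genes at 0 in WT (GARR2KO only). Each line is 1 gene; the WT-only row has an empty stretch of 11238 entries that holds 10 lines of the other row.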

How the data were processed

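RNA sequencing of the second leaf sheath gave 3 WT and 3 GARR2KO libraries. For each library the authors deposited a separate table with 1 value per gene, taken here as FPKM. Per the submitters' processing notes the tools were TopHat2, Cufflinks and Cuffdiff and the build was B73 RefGen_v4. The tables name no unit, and RPKM would look alike. Versions, annotation, filters, use of strand and whether reads or read pairs were counted were not given in the sources used here. Groups follow the sample titles. Here, whole reads and gene lengths were recovered as the smallest whole numbers that give all values of a gene, which succeeded for all 31076 genes above 0. A common multiple would raise reads and length together. Reads per library numbered 17723731 to 20722310, and 1 read in a gene of 2000 bp was worth 0.0240 to 0.0283 FPKM. Changes were tested with limma-trend (limma 3.58.1, R 4.3.3), two-sided, on log2(FPKM + 1) over the 21531 genes whose mean reached 1 FPKM, with Benjamini-Hochberg adjustment. This scale understates changes of low genes. Recovery and fit were also run on counts simulated from the recovered lengths, with the same extra spread for every gene. That run cannot show whether the recovered lengths or the calls hold in the real data. The reference table, of assembly Zm-B73-REFERENCE-NAM-5.0, matched 0 of the 44146 identifiers. The planned lists of cell type markers, annotation classes and closest relatives had no matched gene and were not run, and the tissue label was not checked against markers. Members, lists and tests were chosen with earlier results of these data known. Genes were named by rule: every member where described, in full those of at least 5 FPKM, those closest to the minimum or to another member, the genes just outside, and neighbours changed 2-fold or more. Alternatives concerned the minimum level, the limit in GARR2KO, the window, pseudocount, filter, scaling, replicate block and each library left out. The edgeR test planned for counts was not used, because the files hold FPKM, and voom on the recovered reads took its place.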

Additional observations from a re-analysis of the deposited data

How the results depend on the processing

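The alternatives on voom, on scaling the rule by summed gene reads and on the 4 stretches of identifiers were added with the data already seen. The 33 genes became 12 with a minimum of 5 FPKM, 25 with 2 FPKM and 49 with 0.5 FPKM, 42 when 0.05 FPKM was allowed in each GARR2KO library, and 47 when 3 reads over the GARR2KO libraries were allowed. Leaving out each library gave 35 to 41 genes, which include the 33 since the rule is then looser. The 9517 changed genes became 8963 with the replicate number as a block. Same-numbered libraries had deviations correlated at -0.0507, -0.0461 and 0.0492, so the numbers were not treated as pairs. A change of 2-fold or more was called for 864 genes, for 521 at a minimum mean of 5 FPKM, where fewer genes were tested, for 1330 at a pseudocount of 0.1 and for 1378 by voom. The cause was not tested for the last 2 counts. The 16 members with a neighbour changed 2-fold or more became 12 with a window of 2 tested genes and 22 with 10. Their number was 13 with no filter, 17 at a minimum mean of 5 FPKM, 18 at a pseudocount of 0.1 and 22 with voom. It was 12 of 27 outside the stretches and 15 to 17 without a library. A wider window or more called genes can raise this number. The share beside genes outside the set is given for the main setting only. The 29 tested members and the 30 neighbours kept direction and an adjusted p under 0.05 in the 373 and 406 pairings of gene and alternative where the gene stayed in the fit. It dropped out under the minimum mean in 33 and 14 pairings. The direction of the members follows from the rule, and the neighbours were chosen by this same call in the main setting. That both kept their calls is therefore no test. The change of 2 neighbours went under 2-fold in 4 refits without a library: Zm00001d019734, at log2 folds of -0.97 to -0.99 without GARR2KO replicate 2, WT replicate 1 or WT replicate 3, and Zm00001d042684, at -0.99 without GARR2KO replicate 3. Depth limits what a 0 can show, as given for each bound.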

Other observations

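The 33 genes left a long part of the listing empty. Between Zm00001d026390 and Zm00001d040159 there were 11238 listed identifiers, with 5457 genes of at least 1 FPKM in all WT libraries (26.5% of all such genes), and no member. The next longest stretch without a member held 6588 identifiers and 3354 such genes. Inside the longest stretch the fewest GARR2KO reads of any such gene was 1. A count of 0 could not occur there, since such a gene would be a member. In the stretch 3 of the 5457 genes (0.055%) had 1 to 3 reads, against 11 of the 15129 outside it (0.0727%). The opposite pattern, at 0 in WT and at least 1 FPKM in all GARR2KO libraries, was met by 10 of its 59 genes there. Changes of 2-fold or more were called by limma for 177 of the 5692 tested genes in the stretch (3.11%), 98 higher and 79 lower in GARR2KO, and for 4.16% of the 15810 tested genes outside it that were no members. Changes of any size were called for 42.9% inside and 44.6% outside. The stretch was picked because it was the longest, after the values had been seen, and no test was made.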
